A study of Danio rerio with 16 samples.

Results

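In zebrafish hearts sampled 7 days after cryoinjury, 34 gene IDs were abundant in the cells that carried neither of the study's reporters and at least 10 times lower in each of the 3 reporter-positive groups. They were chosen from the deposited values themselves. An ID entered when its mean in the double-negative sort was at least 20 TPM (transcript abundance corrected for length and given as a share of a fixed library total) and when that mean plus 1 was at least 10 times the mean plus 1 of every other group. Of 31388 IDs, 40 met these thresholds, and 6 of 9 IDs that the rule set aside were among them, which left 34. Of these, 31 had a gene symbol. The differences between the double-negative sort and the other groups are therefore how the genes were picked, and they are given below as a description without a test.

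All fish were adults aged 3 to 9 months and double transgenic for postnb:citrine and kdrl:mCherry, the controls included. The kdrl promoter drives mCherry in endothelium and endocardium, and the postnb promoter drives citrine in periostin-expressing fibroblasts. Cells of the ventricular apex, from 3 to 5 hearts combined in each sample, were sorted into mCherry-positive cells of uninjured hearts (3 libraries), mCherry-positive cells at 7 days (4), citrine-positive cells at 7 days (3) and double-negative cells at 7 days (6). The labels number the hearts by pool. Double-negative libraries came from pools 5 to 10, citrine-positive ones from pools 7, 9 and 10, and mCherry-positive ones from pools 5, 6, 7 and 9 after injury and from pools 2, 3 and 4 without it. There was no double-negative library from uninjured hearts, so the data hold no injury comparison for these cells.

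The double-negative sort is what remains after cells sorted by either reporter are removed, and blood is part of it. Fish red cells keep their nucleus and go on making RNA for haemoglobin, which is built from alpha and beta globin chains, and for the membrane skeleton and iron uptake that the cell needs. Neutrophils, macrophages, lymphocytes and thrombocytes, the nucleated fish counterpart of platelets, also enter an injured heart. In RNA from sorted bulk cells, fewer cells of a type and less RNA per cell cannot be told apart.

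Depth is unknown because TPM keeps no counts, and the libraries held between 12111 and 16854 IDs at 1 TPM or more. Libraries of pools 9 and 10 stood apart in every sort: a pair of si:dkeyp-3b12 IDs took 25.7% to 35.8% of all TPM in these 5 libraries and at most 2.09% in the other 11. The reporter gene kdrl fell in the double-negative sort but was not absent, at 36.9 ± 13.5 TPM (SD, n = 6) against 214 ± 51.0 (n = 4) in mCherry-positive cells at 7 days (limma, log2 fold change -2.55 ± 0.31 SE, adjusted p = 3.99e-05). The summed TPM of 8 endothelial list genes was 124 to 358 in double-negative libraries and 719 to 1334 in mCherry-positive libraries at 7 days. For 15 fibroblast and epicardial list genes it was 1146 to 2894 in double-negative and 3468 to 9170 in citrine-positive libraries. Among them POSTN (ENSDARG00000104267), an ID named for periostin, was 302 ± 98.5 TPM in double-negative cells and 16.8 ± 15.1 in mCherry-positive cells at 7 days. Its level in citrine-positive cells is not given here, so these values do not show what part of the fibroblast level it was. Periostin RNA was therefore not absent from the double-negative sort.

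Globin chains made up most of the RNA of these genes. The most abundant was si:ch211-5k11.8 (ENSDARG00000079078), for which RefSeq lists the synonym hbaa1.2. RefSeq places it in the globin cluster near the adult alpha globin hbaa1, with hbba1 between them. The double-negative values of si:ch211-5k11.8 ran from 1718 TPM in pool 9 over a median of 7244 to 34908 in pool 7. The other 10 libraries lay between 0.54 and 154 TPM. The adult alpha globin hbaa1 (ENSDARG00000097011) ran from 1678 TPM in pool 9 over a median of 5287 to 20602 in pool 7, against 0.98 to 145 TPM elsewhere. For both genes every double-negative library stood above every other library, and the nearest was the mCherry-positive library of pool 7. The second adult alpha globin hbaa2 had 230 TPM in pool 9, a median of 936 and 4228 in pool 7, with at most 27.3 TPM elsewhere. The embryonic alpha globin hbae4 was far lower, at 6.16 to 57.9 TPM, and was listed at 0 in 9 of the 10 other libraries.

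The 4 alpha globins together summed to 3634 TPM in pool 9 and 59796 TPM in pool 7. That was 80.5% to 87.5% of the summed TPM of all 34 genes in each of the 6 libraries. Their proportions moved less than their level. The ratio of si:ch211-5k11.8 to hbaa1 lay between 1.02 and 1.93, and hbaa2 amounted to 13.7% to 23.4% of hbaa1. Reads that fit several transcripts were divided among them by estimate. How alike these copies are was not examined here, and values of single copies are to be read with that limit.

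A further 7 genes belonged to a list of erythroid markers. nt5c2l1, a 5′-nucleotidase-like gene, had 29.3 TPM in pool 10, a median of 285 and 1072 in pool 7, with at most 5.90 TPM in any other library. epb41b, which encodes protein 4.1 of the red cell membrane skeleton, had 43.4 TPM in pool 10, a median of 119 and 482 in pool 7. The carbonic anhydrase gene cahz had 43.6 TPM in pool 9, a median of 123 and 527 in pool 7. It also reached 9.13 TPM in the uninjured mCherry-positive library of pool 3. In each of these genes all 6 double-negative libraries exceeded the other 10, and pool 7 was the highest. hemgn (hemogen, an erythroid nuclear protein) had 27.8 TPM in pool 9, a median of 87.2 and 417 in pool 7, but it also reached 6.29 TPM in citrine-positive cells. The transferrin receptor tfr1a, which takes up iron, lay between 15.8 and 141 TPM, the Rh-associated glycoprotein RHAG between 10.9 and 129, and si:ch211-207c6.2 between 6.55 and 192.

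Beside the red cell genes stood 6 genes of white cells and thrombocytes, at much lower levels. nkl.2, a NK-lysin antimicrobial peptide gene of cytotoxic lymphocytes, had 50.2, 180, 63.2, 43.0, 16.8 and 95.3 TPM in pools 5 to 10. It was listed at 0 in 7 other libraries and reached at most 0.65 TPM in the rest. Lysozyme (lyz), an antibacterial enzyme of neutrophils and some macrophages, had 3.47, 68.8, 17.9, 72.1, 16.8 and 74.2 TPM in the same order. Its low values were in pools 5, 7 and 9, and of the other 10 libraries 1 was above 0, the mCherry-positive library of pool 7 at 0.49 TPM. The leukocyte chemotaxin LECT2 had 6.40, 37.9, 14.1, 29.6, 9.71 and 24.5 TPM and shared those low and high pools. ighm, the constant part of the IgM heavy chain made by B cells, had 12.14, 1.49, 6.88, 6.83, 25.6 and 82.6 TPM. It was 0.07 TPM in the citrine-positive library of pool 9 and listed at 0 in the remaining 9. illr4, an immune-related lectin-like receptor, lay between 8.64 and 51.7 TPM, and tubb1, whose mammalian counterpart is the beta-tubulin of platelets, between 9.14 and 59.4.

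A further 9 named genes had no place among these groups. IGFBP1, which binds insulin-like growth factors, had 16.4 TPM in pool 9, a median of 110 and 469 in pool 7. hprt1l, named for its likeness to a purine salvage enzyme, lay between 11.06 and 203 TPM and hif1al2, related to the hypoxia-inducible factors, between 9.42 and 127. These 3 peaked in pool 7, as the globins did, and so did mibp, fhdc5, RFESD and susd1. HBEGF, a ligand of the EGF receptor, had 20.04, 34.5, 20.3, 28.3, 57.5 and 51.3 TPM in pools 5 to 10, with at most 3.86 TPM elsewhere. Among the genes above 0 in all 6 libraries it had the smallest spread, its highest value being 2.87 times its lowest. lpar5a, a receptor for lysophosphatidic acid, had 39.98, 49.1, 46.0, 31.8, 10.3 and 11.2 TPM. mibp lay between 52.4 and 232 TPM and reached 11.5 TPM in the uninjured mCherry-positive library of pool 3. fhdc5 lay between 16.3 and 101 TPM. RFESD, named for its Rieske iron-sulphur domain, lay between 6.10 and 117 and susd1, named for its sushi domain, between 11.81 and 38.9.

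The remaining 8 genes have no role known here. si:ch211-250g4.3 ran from 107 to 1892 TPM, si:ch211-103n10.5 from 103 to 1153 and ENSDARG00000044212 from 49.2 to 795, and all 3 were highest in pool 7. si:dkey-78l4.1 had 30.2, 69.0, 46.9, 30.8, 15.0 and 69.4 TPM in pools 5 to 10 and was listed at 0 in all 10 other libraries. ENSDARG00000100200 had 180 TPM in pool 5, 8.29 in pool 9 and 0 in the other 4 double-negative libraries and in all others, so its place rested on 1 library. si:ch211-194m7.8, ENSDARG00000060200 and si:ch211-207b24.4 lay between 7.62 and 75.9 TPM.

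**Figure D1:**
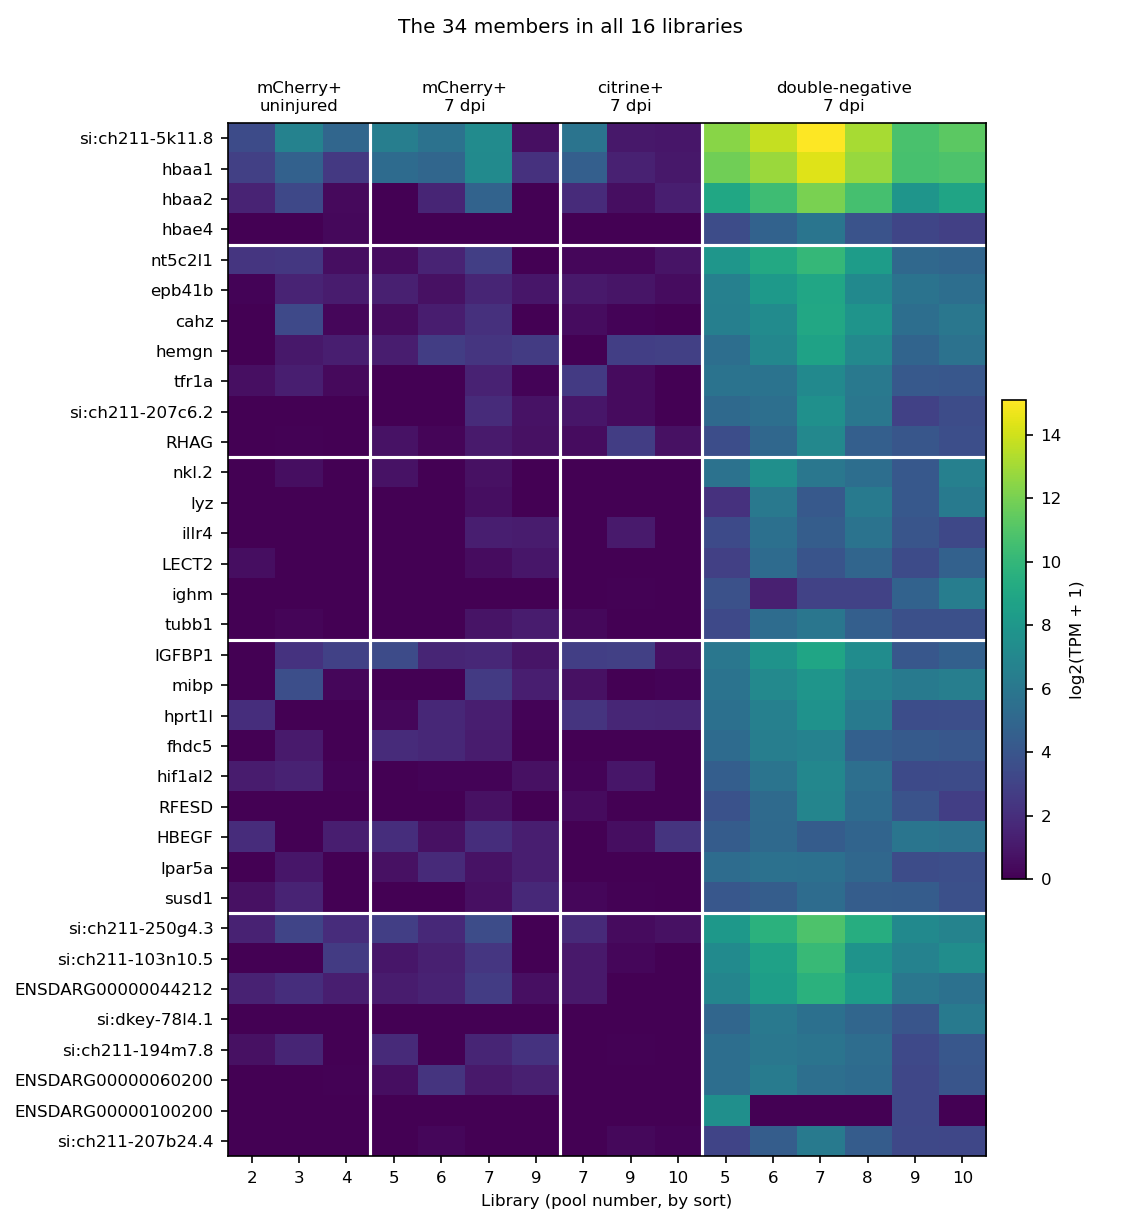
Level of the 34 genes as log2(TPM + 1), by colour, in each of the 16 libraries, arranged by sort and labelled by pool. White lines part the sorts and, from top to bottom, alpha globins, other erythroid list genes, white cell and thrombocyte genes, other named genes and genes with no role known here; the double-negative columns are brighter in every row except ENSDARG00000100200, and low globin values remain in the other sorts.

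The working name of this set, genes confined to double-negative cells, held in part. In 33 of the 34 genes every double-negative library was above all 10 other libraries, where 2.42% of the 19039 IDs tested did so, but the rule chose them on this contrast and nothing is read from the difference. Only 2 of the 34 genes, si:dkey-78l4.1 and ENSDARG00000100200, were listed at 0 in all 10 libraries outside the double-negative sort. The tightest of the 3 ratios was that against mCherry-positive cells at 7 days for 18 genes, against citrine-positive cells for 9 and against uninjured mCherry-positive cells for 7. All 34 genes together held 0.451% to 6.83% of the TPM of a double-negative library and 0.00186% to 0.0388% of any other.

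Some genes lay close to the limits. Just inside the ratio of 10 were RHAG at 11.7, HBEGF at 12.2 and susd1 at 12.3, and just outside it were the biliverdin reductase blvrb, another erythroid list gene, at 9.28, si:dkey-102g19.3 at 9.23 and si:ch211-264f5.2 at 9.08. Just inside the level of 20 TPM were hbae4 at 20.3, LECT2 at 20.4 and susd1 at 21.4. The thrombocyte integrin itga2b at 18.9 TPM, ifi44f1 at 19.4 and si:dkey-21e2.10 at 19.8 met the ratio and missed the level. With any single library left out, 26 of the 34 genes met the rule each time. RHAG was lost without double-negative pool 7, citrine-positive pool 7 or citrine-positive pool 10, LECT2 without double-negative pool 6, 8 or 10 and hbae4 without pool 6 or 7. tubb1, susd1 and si:ch211-207b24.4 were lost without double-negative pool 7, ighm without pool 10 and ENSDARG00000100200 without pool 5.

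The 34 genes did not all follow 1 profile over the 6 double-negative libraries. The highest library was pool 7 for 23 of the 34 genes, pool 6 for 5, pool 10 for 3, and pools 5, 8 and 9 for 1 each. For 15 genes pool 7 was the highest and pools 9 and 10 were both under all the others. Among the 11 globin and erythroid list genes 9 had this profile. The other 2, hemgn and RHAG, were also highest in pool 7, but in each pool 5 was under pool 10, and RHAG was lowest in pool 5. Among the 6 white cell and thrombocyte genes 0 had it, and 1, tubb1, was highest in pool 7. IGFBP1, hprt1l, hif1al2 and fhdc5 had the profile, as did si:ch211-250g4.3 and ENSDARG00000044212. HBEGF, lpar5a, mibp, RFESD and susd1 did not, though the last 3 were also highest in pool 7. The role groups were made after the values were seen, and the difference between them was not tested. How often all tested IDs have these profiles was not counted. The genes were chosen on their double-negative mean, which favours genes with 1 high library. The counts are therefore a description, and nothing is read from them. lyz and nkl.2 also differed from each other, with a ratio of 0.0691 in pool 5 and 1.68 in pool 8.

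The marker lists, taken whole, also varied to different degrees. The summed TPM of the erythroid list ranged from 2353 in pool 9 to 29887 in pool 7, which was 12.7 times as much, and 4.61 times with pool 7 left out. Most of the sum in pool 7 was hbaa1 and hbaa2. The 14 erythroid list IDs outside the 34 and not set aside varied 6.51 times, or 3.26 times without pool 7. The pan-leukocyte list ranged from 958 in pool 5 to 1608 in pool 6, or 1.68 times, and the macrophage list from 1687 to 2919, or 1.73 times. The neutrophil list varied 4.304 times, with its highest sum in pool 6, and the B cell list 5.58 times, with its highest in pool 10. Over all 6 libraries both varied less than the erythroid list. With pool 7 left out the B cell list still varied 5.58 times, which was more than the erythroid list. The neutrophil list still varied 4.304 times, which was less. These sums include the genes described above and, in the erythroid and neutrophil lists, IDs that the rule set aside.

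**Figure D2:**
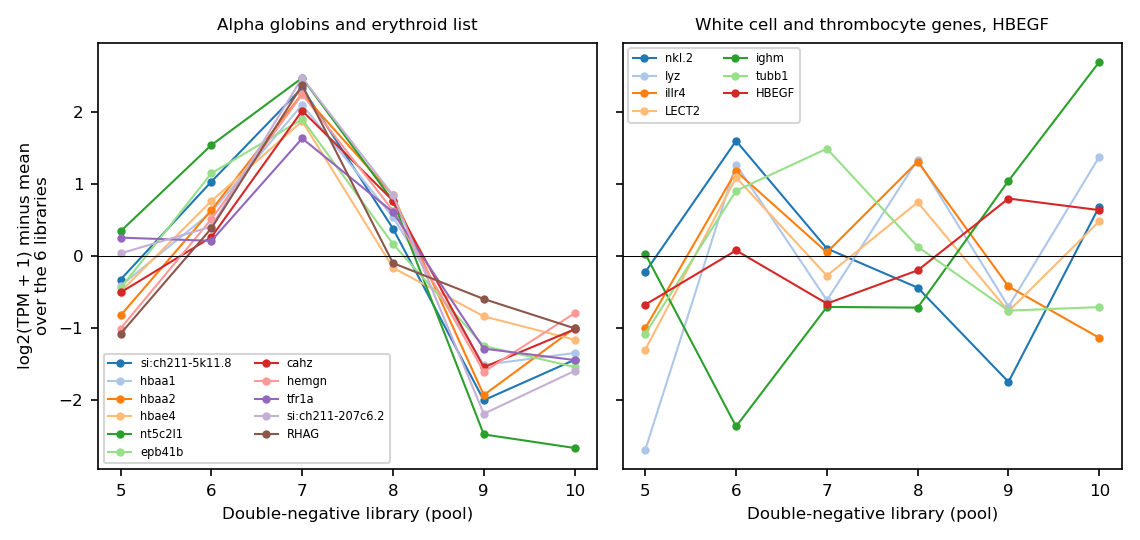
Profile of 18 of the 34 genes over the 6 double-negative libraries, as log2(TPM + 1) minus the mean of that gene over the 6 (lines join libraries for legibility and the pools have no order). All 11 globin and erythroid genes at left have their highest point in pool 7, whereas at right nkl.2 and LECT2 are highest in pool 6, illr4 in pool 8, HBEGF in pool 9, lyz and ighm in pool 10 and tubb1 in pool 7.

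Pools 9 and 10, which stood apart in the whole series, were compared with pools 5 to 8 in the double-negative sort. In 20 of the 34 genes the 2 sets of libraries did not overlap, 18 lower and 2 higher in pools 9 and 10. Over all tested IDs 26.9% did not overlap, 11.6% lower and 15.3% higher. The median difference in mean log2(TPM + 1) was -1.82 over the 34 genes and 0.11 over all tested IDs. It was -1.78 and 0.16 after median-of-ratios scaling of the libraries. The 34 genes were chosen on their mean in these same libraries and all tested IDs were not. The genes and the IDs are therefore not matched for level. The largest falls among the genes without overlap were in nt5c2l1 (-3.86), IGFBP1 (-3.10), hprt1l (-2.88), si:ch211-207c6.2 (-2.84) and si:ch211-5k11.8 (-2.58). The 2 that were higher were ighm (2.81) and HBEGF (1.08). These are differences between libraries of 1 group, with no test, and the part that the si:dkeyp-3b12 pair played in them was not tested beyond the scaling.

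The residual RNA of these genes in the reporter-positive sorts was small, and the part that was globin differed by pool. In the mCherry-positive library of pool 7 alpha globins were 0.0326% of all TPM out of 0.0388% for the 34 genes, and in that of pool 9 they were 0.0004% out of 0.00287%. The 12 genes with a double-negative mean of at least 100 TPM were set against the double-negative library of the same pool. In mCherry-positive cells at 7 days the median over the 12 genes was 1.07% of the double-negative level in pool 5, 0.362% in pool 6, 0.591% in pool 7 and 0.119% in pool 9. In citrine-positive cells it was 0.120% in pool 7, 0.219% in pool 9 and 0.228% in pool 10. Over all genes above 0 in the double-negative library the medians were 0.294%, 0.199%, 0.706% and 0.695% in the mCherry-positive libraries of pools 5, 6, 7 and 9, so the order of these libraries depended on the genes taken. They were 0.0778%, 0.219% and 0% in the citrine-positive libraries of pools 7, 9 and 10. In pool 7, where both sorts were sequenced and globins were highest, hbaa1 stood at 145 TPM in mCherry-positive and 22.9 TPM in citrine-positive cells, or 0.706% and 0.111% of its double-negative level. In pool 9 it stood at 3.46 and 1.64 TPM.

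Over all 34 genes 11 reached more than 10% of their double-negative level in at least 1 reporter-positive library of the same pool. This was most often in pool 9, where 15 of the 34 had their lowest double-negative level. Libraries of uninjured hearts share no pool with the double-negative sort and were left out of these percentages. Of the 12 abundant genes 2 did so. hemgn reached 18.8% of its double-negative level in the mCherry-positive library of pool 9, 21.4% in the citrine-positive library of pool 9 and 12.7% in that of pool 10, at 5.22, 5.96 and 6.29 TPM. IGFBP1 reached 38.9% in the citrine-positive library of pool 9 and 16.1% in the mCherry-positive library of pool 5. Among the less abundant genes si:ch211-194m7.8 reached 39.6% and ENSDARG00000060200 19.1% in the mCherry-positive library of pool 9, RHAG 36.6% in the citrine-positive library of pool 9, and hprt1l 18.99% and 16.9% in those of pools 9 and 10. Globins in the same citrine-positive library of pool 9 were at or under 0.204%.

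**Figure D3:**
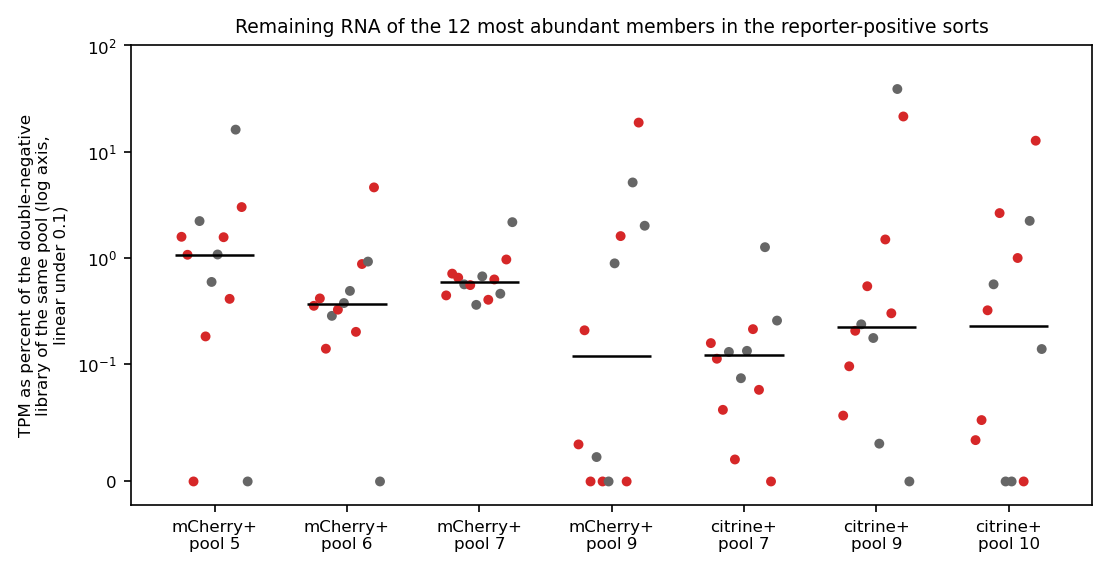
Level of the 12 genes with a double-negative mean of at least 100 TPM in each reporter-positive library, in percent of the double-negative library of the same pool (log axis, linear under 0.1%). Red points are alpha globins and erythroid list genes, grey points other genes, and black lines medians, which lie between 0.119% and 1.07%; the points over 10% are hemgn and IGFBP1.

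The reporter-positive groups, which the rule only held below a ceiling, were compared with each other. Many of the 34 genes lay near 0 in all of these libraries and passed the filter of 1 TPM in 3 libraries through the double-negative libraries, so the counts of calls below are given without reading them against the background. None of the 33 genes that passed the filter (ENSDARG00000100200 did not) was called between mCherry-positive cells at 7 days and those of uninjured hearts, at an adjusted p under 0.05 in limma. The background was 0.693% of all tested IDs, 0.42% higher and 0.273% lower. At an unadjusted p under 0.05 there were again 0 of 33, against 11.5% of all IDs. In a fit of the 2 groups alone, with the filter applied to them, 17 of the genes were tested and 0 were called, with 0 at an unadjusted p under 0.05. That fit called only 4 of all 14576 IDs it tested, so nothing is read from the 0 calls. hbaa1 was 54.3 ± 62.5 TPM (SD, n = 4) at 7 days and 12 ± 11.5 (n = 3) without injury, a log2 fold change of 1.55 with a 95% interval from -0.63 to 3.73 (limma adjusted p = 0.602). Without the mCherry-positive library of pool 9 that fold change was 2.47 (adjusted p = 0.258, and 0.164 to 0.845 over 14 alternatives). si:ch211-5k11.8 was 72.5 ± 64.5 and 47.9 ± 48.7 TPM. The intervals are wide and do not show that the levels were alike.

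Between citrine-positive and mCherry-positive cells at 7 days, 0 of the 33 genes were called in limma, against a background of 11.9%, 4.84% higher and 7.07% lower. Median-of-ratios scaling turned that split over all IDs from 922 higher and 1346 lower to 1557 and 956, and moved the median log2 fold change of all IDs from -0.19 to 0.14. At an unadjusted p under 0.05 there was 1, hbaa1, against 24.8% of all IDs. In a fit of the 2 groups alone 15 of the genes were tested, 0 were called and 3 had an unadjusted p under 0.05. That fit called 1384 of all 15480 IDs it tested. In citrine-positive cells hbaa1 had 22.9, 1.64 and 0.98 TPM in pools 7, 9 and 10, and in mCherry-positive cells 38.2, 30.1, 145 and 3.46 TPM in pools 5, 6, 7 and 9. The groups overlapped through pool 7 of the former and pool 9 of the latter. Its log2 fold change was -2.58 ± 1.04 SE (95% interval -4.76 to -0.40, adjusted p = 0.124 in limma). Without the mCherry-positive library of pool 9 hbaa1 was called at -3.49 (adjusted p = 0.0198) and si:ch211-5k11.8 at -3.90 (adjusted p = 0.0331). Without the citrine-positive library of pool 7 hbaa1 was called at -3.71 (adjusted p = 0.0335). The first of these fits left no mCherry-positive library of pools 9 and 10 at 7 days. The other left only pools 9 and 10 in the citrine-positive group. Pools 9 and 10 stood apart in every sort, so sort and pool cannot be told apart in these fits. Over its 16 alternatives the adjusted p of hbaa1 ranged from 0.0198 to 0.750 and that of si:ch211-5k11.8 over its 14 from 0.0331 to 0.779.

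lpar5a and ENSDARG00000060200 were listed at 0 in all 3 citrine-positive libraries and had 0.57 to 2.54 and 0.49 to 3.89 TPM in mCherry-positive cells. They were not called with a pseudocount of 1 (adjusted p = 0.244 and 0.210 in limma), whereas with a pseudocount of 0.1 both were (adjusted p = 0.0178 and 0.00772, the lowest over their alternatives, with 0.685 and 0.649 the highest).

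**Figure D4:**
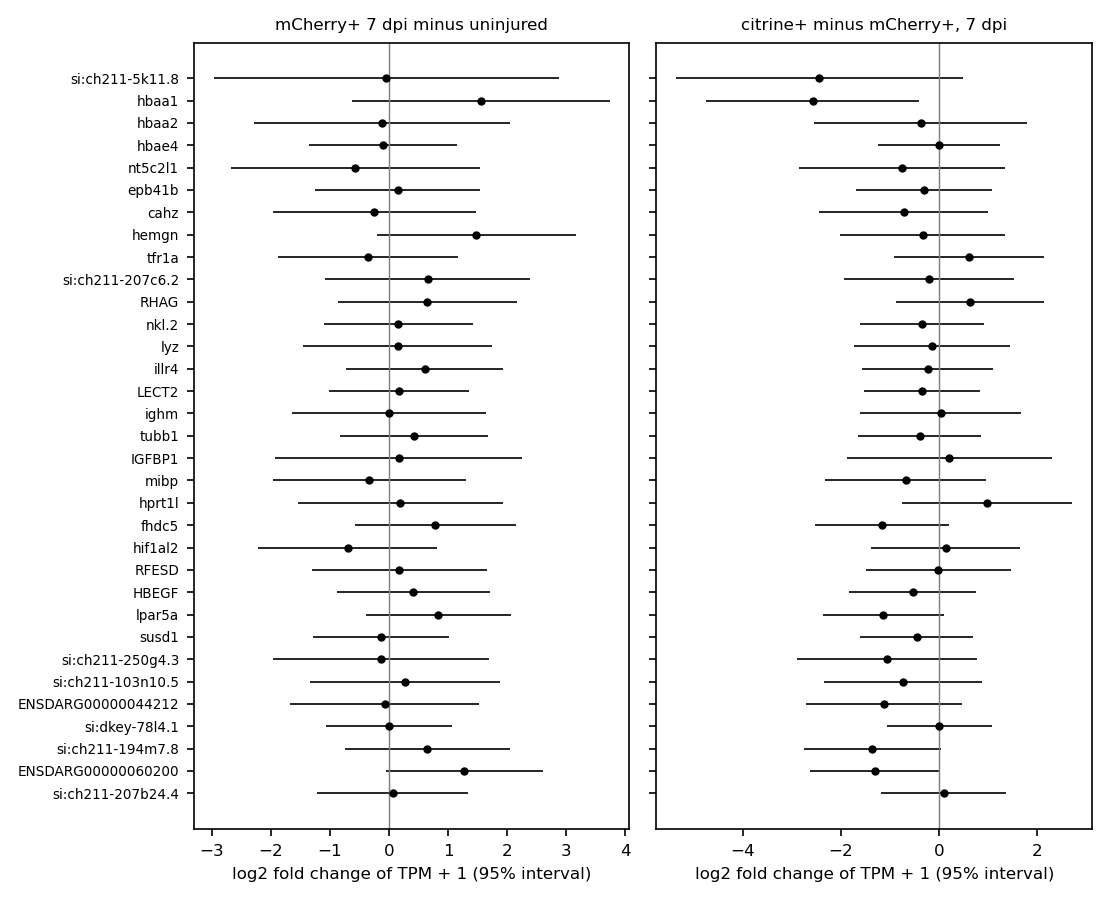
Log2 fold change of TPM + 1 with its 95% interval from limma for the 33 tested genes, between mCherry-positive cells at 7 days and without injury (left) and between citrine-positive and mCherry-positive cells at 7 days (right). The interval spans 0 for all genes at left and for all but hbaa1 (-4.76 to -0.40) at right, and 0 genes were called in either comparison.

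The rule admitted some blood genes and not others. Over all 3423 IDs with at least 20 TPM in double-negative cells, 8.30% were at least 10 times the level in citrine-positive cells and 2.48% that in mCherry-positive cells at 7 days. Of 15 erythroid list IDs with at least 20 TPM in double-negative cells, 13 were at least 10 times the level in citrine-positive cells and 13 that in mCherry-positive cells at 7 days. Of 16 macrophage IDs at that level, 14 were at least 10 times the level in citrine-positive cells but 0 that in mCherry-positive cells at 7 days. The same held for pan-leukocyte genes (13 IDs, with 9 and 0) and antigen presentation (9 IDs, with 5 and 0). Of 8 neutrophil IDs, 6 and 4 did so. These counts apply the rule's own thresholds and include IDs among the 34 and IDs that the rule set aside. There were 9 and 2 of these in the erythroid list, and 2 and 2 in the neutrophil list. The counts therefore partly restate the choice of genes, and nothing is read from the difference between lists. The counts of 0 over mCherry-positive cells are close to the share over all IDs, and the lists are small. No pan-leukocyte, macrophage, antigen presentation, NADPH oxidase or chemokine list gene was therefore among the 34.

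**Figure D5:**
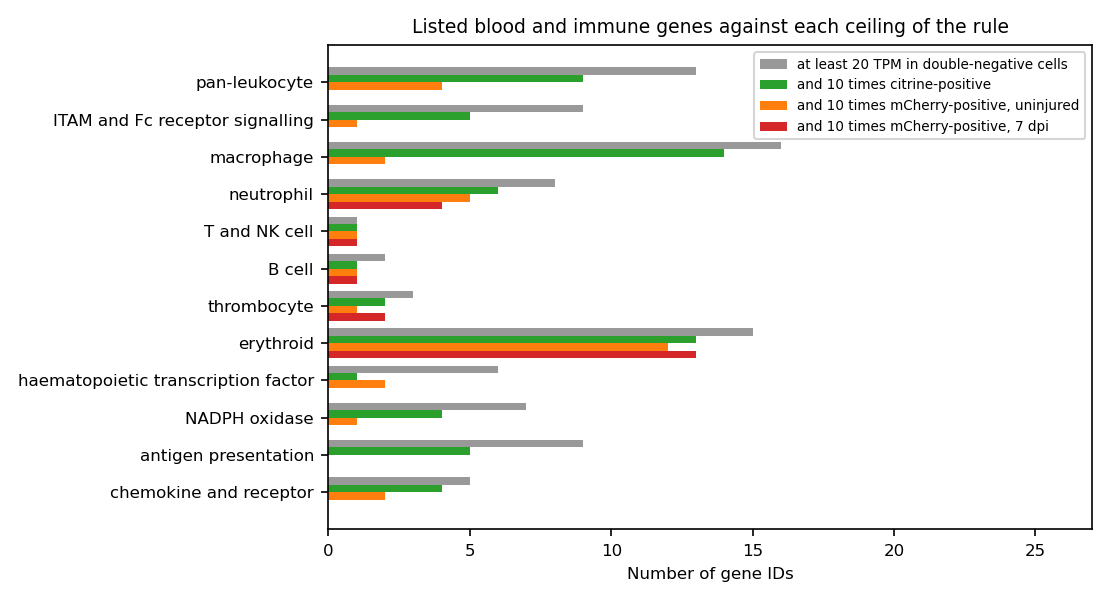
Number of gene IDs of 12 marker lists with a double-negative mean of at least 20 TPM (grey), and how many of these are at least 10 times citrine-positive (green), uninjured mCherry-positive (orange) or mCherry-positive cells at 7 days (red). The red bar is missing for the macrophage and pan-leukocyte lists, among others, and is as long as the green bar, 13 IDs, for the erythroid list.

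The genes of all 20 marker lists, blood and other cell types together, were tested next. The 34 and the IDs that the rule set aside were left out, here and in the counts per list below. Against citrine-positive cells 135 of the 250 tested were called in limma, 125 higher and 10 lower in double-negative cells, where the background was 9.85% in either direction, 8.08% higher and 1.78% lower. Leaving out all libraries of pools 9 and 10 left only the citrine-positive library of pool 7, so no count of calls is given for that fit. Against mCherry-positive cells at 7 days 119 of 250 were called, 104 higher and 15 lower, where the background was 10.9%, 6.88% higher and 4.06% lower. Of the lower calls 7 against citrine-positive cells were fibroblast and epicardial genes, and 7 against mCherry-positive cells were endothelial genes. Genes of blood and immune lists were also lower than in mCherry-positive cells. Among them were FGR (53.6 against 122 TPM), cfd (55.4 against 348) and GATA2 (3.54 against 14.9). The rule used these same contrasts, and some listed genes, such as itga2b, met its ratio and missed only its level. The calls are therefore no separate support for the choice of the 34. The lists were chosen with results of these data known, and both comparisons share the double-negative libraries. Median-of-ratios scaling moved the median log2 fold change of all IDs from 0.23 to 0.03 in the former and from 0.10 to 0.25 in the latter. In the former it also changed the split of calls over all IDs from 1538 higher and 338 lower to 1567 and 886. In the latter that split went from 1310 higher and 773 lower to 1801 and 715. The listed genes called went from 135 to 142 in the former and from 119 to 140 in the latter.

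Of 13 erythroid list genes outside the 34, 9 rose against citrine-positive cells and 7 against mCherry-positive cells at 7 days, with median log2 fold changes of 2.53 and 1.71. Lists of other cell types moved in these comparisons too. Against mCherry-positive cells 6 of 9 cardiomyocyte genes rose and 1 fell (median 2.96), 4 of 6 smooth muscle genes rose (2.27), and 7 of 14 fibroblast genes rose and 1 fell (1.36). Against citrine-positive cells 5 of 8 endothelial genes rose (3.68). Their part in the results for the blood lists was not tested. The spectrin gene SPTB was 52.7 ± 50.8 TPM (SD, n = 6) in double-negative and 1.02 ± 0.33 (n = 4) in mCherry-positive cells (log2 fold change 4.19 ± 0.72 SE, adjusted p = 8.69e-04, limma). EPOR, the receptor for erythropoietin, was 16 ± 12.3 and 0.688 ± 0.826 TPM (3.14 ± 0.52, adjusted p = 6.11e-04, limma). The erythroid transcription factor gata1a, named here after its values were seen, was 14.4 ± 3.99 TPM in double-negative cells, 9.55 ± 10.7 in mCherry-positive cells at 7 days (log2 fold change 1.22 ± 0.59, adjusted p = 0.221, limma) and 31.0 ± 11.4 in uninjured mCherry-positive cells. Without the mCherry-positive library of pool 5 the difference from mCherry-positive cells at 7 days was 1.88 and was called (adjusted p = 0.0397, the lowest over 19 alternatives, with 0.637 the highest).

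Of 11 other neutrophil genes 9 rose against citrine-positive and 8 against mCherry-positive cells at 7 days, with medians of 2.92 and 1.88. CSF3R, the receptor for the granulocyte growth factor G-CSF, was 22.4 ± 3.96 TPM in double-negative and 2.98 ± 2.19 in mCherry-positive cells (log2 fold change 2.72 ± 0.47 SE, adjusted p = 8.72e-04, limma). Of 20 T and NK cell genes 8 and 7 rose and 0 and 1 fell. nkl.4, a gene neighbour of nkl.2, was 12.3 ± 5.48 against 0.120 ± 0.240 TPM (3.49 ± 0.39, adjusted p = 1.80e-05, limma). Of 12 thrombocyte genes 7 and 6 rose, itga2b among them at 18.9 ± 8.81 against 0.565 ± 0.566 TPM (3.61 ± 0.44, adjusted p = 4.63e-05, limma). Of 7 B cell genes 1 and 2 rose.

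Pan-leukocyte and macrophage genes, none of which met the rule, were called too. Of 14 pan-leukocyte genes 13 and 10 rose, and of 23 macrophage genes 19 and 10 rose and 0 and 1 fell. The 1 that fell was apoeb, at 19.5 ± 6.57 TPM in double-negative cells and 51.7 ± 19.5 in mCherry-positive cells at 7 days. Its log2 fold change was -1.35 ± 0.41 SE (adjusted p = 0.0377, limma). ptprc, the CD45 phosphatase of all white cells, was 157 ± 40.7 TPM in double-negative cells, 22.7 ± 15.2 in mCherry-positive cells at 7 days and 0.203 ± 0.197 in citrine-positive cells. It rose by 2.97 ± 0.40 on the log2 scale over the former (adjusted p = 1.04e-04, limma) and by 7.01 ± 0.44 over the latter (adjusted p = 1.41e-08, limma). The mannose receptor mrc1b was 154 ± 36.3 TPM against 26.0 ± 23.8 in mCherry-positive cells at 7 days (2.87 ± 0.54, adjusted p = 0.00166, limma).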

How the data were processed

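The 34 genes and the gene lists were chosen with earlier results of these data known. The authors deposited 1 table of TPM values for 31388 gene IDs in 16 libraries. CASAVA 1.8.2, cutadapt, RSEM 1.2.25 and the build Zv9 were used, per the submitters' processing notes, and 0.2 to 0.6 ng of RNA was amplified, per the labels' protocols. RSEM divides reads shared by similar transcripts by estimate, and TPM keeps no depth, so no counting interval can be given. Log2(TPM + 1) was fitted in limma 3.58.1 (R 4.3.3, trend option, 1 mean per group over all 16 libraries) for the 19039 IDs with at least 1 TPM in 3 libraries, with Benjamini-Hochberg adjustment and a call at adjusted p under 0.05 (two-sided). The fit was also run on simulated data in which all genes had the same spread and only genes above a low level were changed. That run does not bear on genes of lower level or wider spread. Fold changes on this scale understate those of low genes. Each library is a sort of pooled hearts, and p-values measure the spread between such libraries.

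Genes were named by these rules: the 20 with the highest double-negative mean, up to 5 per list, those next to a threshold, up to 5 per direction for the pool difference, and for other listed genes up to 3 per list, direction and comparison by adjusted p. Further members are named to account for all 34. Of 352 listed symbols 165 matched exactly, 99 in another letter case and 19 through RefSeq synonyms (assembly GRCz12tu, names and neighbours only), which gave 302 IDs. Grouping by role was made after the values were seen. Libraries of different sorts with the same pool number were read as the same hearts. Deviations from the group mean correlated within pools 7, 9 and 10 at 0.163, 0.227 and 0.190 for double-negative and citrine-positive libraries. Libraries of different pools reached 0.167 (pools 6 and 7) and 0.166 (pools 10 and 9). The shared number did not stand out in pool 7. In pools 9 and 10 the value within the pool was above all those of different pools. Alternatives were other thresholds, scaling, filters, pseudocounts, single libraries left out, pools 9 and 10 left out and a pool block.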

Additional observations from a re-analysis of the deposited data

Results flagged for a closer look

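Of 58 sets of 4 or 6 libraries examined gene by gene, 16 held a library set apart from the others of its group. The mark was a gap above Dixon's 95% critical value, which chance gives in about 1 of 20 unselected sets of normally distributed values. These genes were selected on their double-negative mean, which favours genes with 1 high library, so that rate does not apply to the double-negative sets. TPM values were used untransformed, and mCherry-positive sets were kept only where a library reached 1 TPM. The rate therefore does not apply to those sets either. ENSDARG00000100200, ighm, susd1, si:ch211-207b24.4 and RHAG did not meet the rule without the library named here. In 11 of these the double-negative library of pool 7 was the high one. It had 34908 TPM of si:ch211-5k11.8, 20602 of hbaa1 and 4228 of hbaa2. It also had 1153 TPM of si:ch211-103n10.5, 527 of cahz, 417 of hemgn, 192 of si:ch211-207c6.2, 129 of RHAG, 117 of RFESD, 69.4 of si:ch211-207b24.4 and 38.9 of susd1. The genes share this library, so these are not 11 separate observations. The mCherry-positive library of pool 7 was set apart for hbaa2 at 27.3 TPM and tfr1a at 1.77 TPM. The other 3 were the double-negative library of pool 5 for ENSDARG00000100200 at 180 TPM, that of pool 10 for ighm at 82.6 TPM, and the mCherry-positive library of pool 5 for IGFBP1 at 9.86 TPM.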

How the results depend on the processing

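The number of genes that met the rule followed its thresholds, with 59 at a level of 10 TPM, 20 at 40 TPM, 93 at a ratio of 5 and 15 with an added constant of 5, and it ran from 32 to 43 with single libraries left out. Medians in place of means gave 39 genes, 26 of them among the 34. No gene was called between mCherry-positive cells with and without injury under any alternative. Between citrine-positive and mCherry-positive cells a pseudocount of 0.1 gave 2 calls and single libraries left out 0 to 2. With single libraries left out, the listed genes called against citrine-positive cells were 107 to 136, and against mCherry-positive cells 85 to 113. Over all IDs those fits made 1250 to 1908 and 1478 to 2522 calls. The genes without overlap by pool were 20 to 29, while the share over all IDs rose from 26.9% to as much as 43.5%. The cause of these shifts was not tested.

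With the pool as a replicate block on libraries of shared pools, 138 of 224 listed genes were called against citrine-positive cells. Against mCherry-positive cells 94 of 229 were. On the same libraries without the block, an alternative added after seeing the data, 118 and 73 were called. Calls over all IDs moved the same way. They were 1645 of 16321 and 1332 of 16641 with the block, and 1282 and 1090 without it. In the citrine-positive against mCherry-positive comparison the block gave 0 calls among the 5 genes that passed its filter. Over all IDs of that comparison it gave 613 calls, and 190 were made on the same libraries without it. Within pools the deviations correlated at 0.0651 and 0.181 there, and at 0.0471, 0.146, 0.0181 and 0.368 between double-negative and mCherry-positive cells. Different pools reached 0.177 and 0.363 in these 2 comparisons. No block was possible for the injury comparison, which shares no pools.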
